A study of Rattus norvegicus with 12 samples.

Results

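The 9 genes described here are the hexokinases Hk1 and Hk2, the phosphofructokinase subunits Pfkl, Pfkm and Pfkp, and the 4 bifunctional enzymes Pfkfb1, Pfkfb2, Pfkfb3 and Pfkfb4. A probe belonged to the set when the platform's probe-to-gene table paired it with one of these symbols. Of the 9 genes, 8 had 1 probe each, 8 of 22523 probes in all, and no probe was named Hk1. The tissue was epididymal fat, the pad attached to the epididymis, of male Sprague-Dawley rats aged 40 days. Food had been removed from 6 rats 6 h before sampling according to the labels, and the other 6 rats ate ad lib. The paper gives a slightly longer time and another clock hour for the removal. Each rat had 1 array, and the 12 arrays shared 1 RatRef-12 chip, on which a probe gives a fluorescence signal.

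Hexokinases phosphorylate glucose as it enters the cell and so hold it there. Hk1 is found in most tissues, whereas Hk2 is the insulin-responsive form of muscle and fat. Phosphofructokinase, a tetramer of liver (Pfkl), muscle (Pfkm) and platelet (Pfkp) type subunits, then commits the sugar to glycolysis. It is stimulated by fructose 2,6-bisphosphate, which the Pfkfb enzymes both make and break down. Pfkfb1 is known from liver and muscle, Pfkfb2 from heart, Pfkfb4 from testis, and Pfkfb3, whose kinase activity far exceeds its phosphatase activity, from adipose tissue, endothelium and proliferating cells.

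The raw signal had a median of 105 to 139.6 on the arrays labelled food removed and of 91.1 to 137 on those labelled ad lib. The adipocyte genes Adipoq and Fabp4 lay between 13.32 and 14.71 on the log2 scale on every array, so adipocyte RNA was present throughout. Of 20 listed epididymis genes, 13 had a probe. Their summed signal was 8.58 to 17.03 (log2) on the arrays labelled food removed and 8.71 to 11.52 on those labelled ad lib. Food removed replicates 3, 4 and 5 and ad lib replicate 6 had at least 1 of these genes above a log2 signal of 8. The defining genes Gpx5 and Adam7 reached 15.01 and 14.44 on food removed replicate 3. Chip positions 1 and 3 to 7 held the food removed label, while the ad lib label was at 2 and 8 to 12, so position and label nearly coincide. Whole-tissue RNA cannot tell fewer cells of a type from less RNA per cell.

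Hk2 was higher and Pfkfb3 was lower in the arrays labelled food removed than in those labelled ad lib. The other 5 tested members, Pfkl, Pfkm, Pfkp, Pfkfb1 and Pfkfb4, did not pass the test. Signals on the log2 scale were background-corrected and quantile-normalized, and limma compared the 12196 probes that 6 or more arrays detected. Of the 8 member probes, 7 were tested, each of them detected on all 12 arrays, and Pfkfb2 was not. Of these 7, 1 rose and 1 fell at an adjusted p under 0.05, while 2.47% of all tested probes passed, 1.05% higher and 1.42% lower. An unadjusted p under 0.05 was reached by 4 of the 7, against 15.9% of all tested probes. The methods' t-test, the unpaired test in the paper's general statistics, passed 0 of the 7 and 1.89% of all tested probes. For the arrays the paper used the Beadstudio software, which was not run here. The direction of Pfkfb3 is opposite to that in the study's own list of increased genes, and the text therefore speaks of labelled arrays. Angptl4, the gene at the centre of the study, was also opposite to that list, with a log2 difference of -2.08 for its brighter probe (adjusted p = 0.00111 from limma). In separate experiments the paper measured Angptl4 mRNA by quantitative PCR, and it rose in fat when food was withdrawn from rats. The labelled direction of Angptl4 here is opposite to that too. Whether the labels of the groups are exchanged was not settled. If they are, the sign of every difference given here, that of Hk2 included, turns. That list was made from these arrays, and the change of Pfkfb3 is therefore not independent evidence of its direction.

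**Figure D1:**
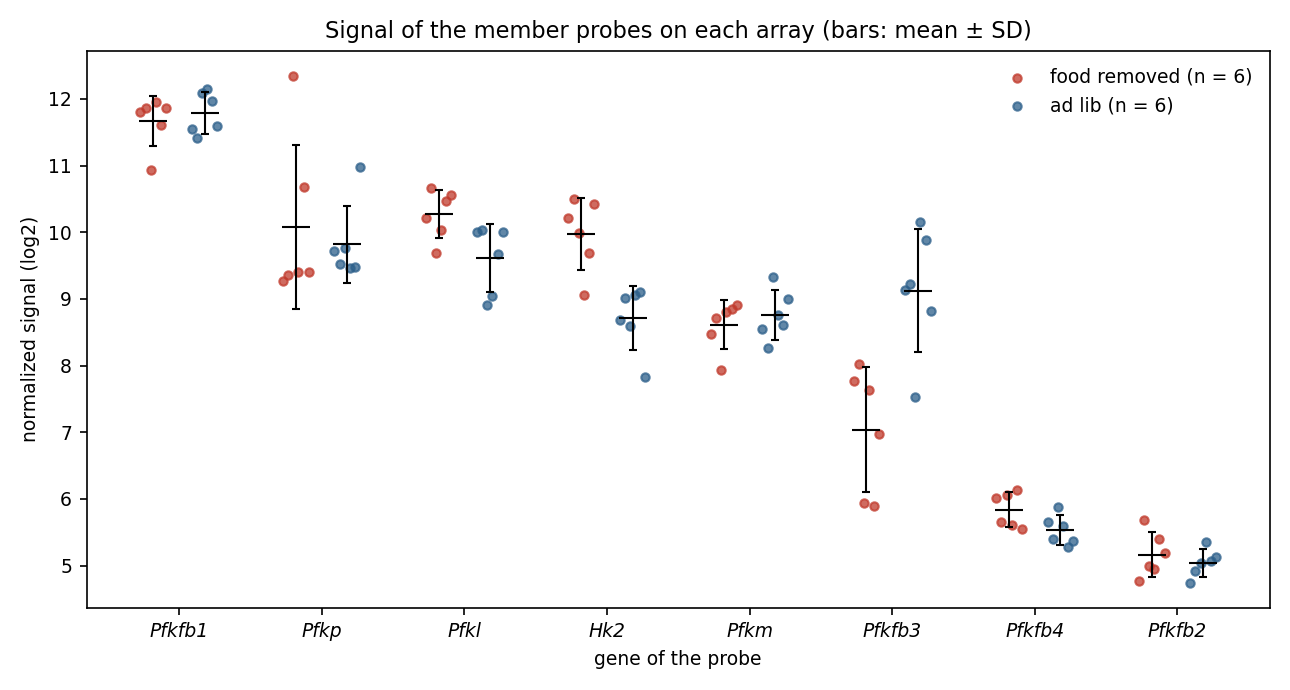
Normalized log2 signal (vertical axis) of the 8 member probes, ordered from bright to dim, on each of the 6 arrays labelled food removed (left of each pair) and the 6 labelled ad lib, with bars for the mean and SD. Hk2 sits higher and Pfkfb3 lower on the food removed arrays, and 3 Pfkp points stand above the rest.

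The upstream sequences of the 2 members that passed the test are shown, 250 bases before the start that RefSeq gives on the rat assembly GRCr8, 5′ to 3′. Hk2 lies at chr4:116792258-116841275 and its upstream stretch at chr4:116841276-116841525 (minus strand). Pfkfb3 lies at chr17:71893320-71974526 and its stretch, which belongs to a start inside that span, at chr17:71944683-71944932 (plus strand). Capitals mark the E-box CACGTG, a motif bound by bHLH factors.
Hk2: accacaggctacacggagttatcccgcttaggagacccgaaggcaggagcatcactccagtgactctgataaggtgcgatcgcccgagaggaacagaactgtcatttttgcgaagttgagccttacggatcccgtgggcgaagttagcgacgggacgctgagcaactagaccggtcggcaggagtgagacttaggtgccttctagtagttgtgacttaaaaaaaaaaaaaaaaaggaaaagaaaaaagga
Pfkfb3: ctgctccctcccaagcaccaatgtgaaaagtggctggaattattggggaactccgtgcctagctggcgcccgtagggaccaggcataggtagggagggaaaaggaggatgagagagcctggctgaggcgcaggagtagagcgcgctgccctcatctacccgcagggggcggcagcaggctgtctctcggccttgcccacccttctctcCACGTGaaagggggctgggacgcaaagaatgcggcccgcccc
Windows of 250 bases before to 50 after each start were searched on both strands for the E-box CACGTG, the hypoxia cores ACGTG and GCGTG, the forkhead motif GTAAACA and the cAMP response element TGACGTCA. The Pfkfb3 window held 1 E-box, which includes the core ACGTG, and none of the others. The Hk2 window held none of the 5. The E-box occurred in 5.59% of 33469 such windows, ACGTG in 16.6% and GCGTG in 25.9%, GTAAACA in 3.21% and TGACGTCA in 1.59%. A match describes letters in this window only.

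Hk2, the hexokinase of insulin-responsive tissues, was 2.40-fold higher in the arrays labelled food removed. Its log2 signal was 10.21, 10.50, 9.99, 9.05, 9.69 and 10.42 in food removed replicates 1 to 6, against 8.69, 9.01, 8.59, 9.06, 9.11 and 7.82 in ad lib replicates 1 to 6. All 6 arrays labelled food removed lay above the ad lib mean, and 5 lay above every ad lib array. The groups overlapped through food removed replicate 4 alone. The means were 9.98 ± 0.54 in the arrays labelled food removed and 8.71 ± 0.48 in those labelled ad lib (SD, n = 6 each). The log2 difference was 1.26 (standard error 0.26, 95% interval 0.70 to 1.83, adjusted p = 0.0211 from limma). An exact permutation test of the arrays, two-sided, gave p = 0.00649. Without the 4 arrays with epididymis markers, an alternative chosen after the data were seen, Hk2 differed by 1.50 (adjusted p = 0.000399 from limma), where 3.01% of 11247 probes passed. The groups of 3 and 5 arrays then did not overlap for Hk2, Pfkl and Pfkp, 3 of the 7 members, against 13.5% of all tested probes. The arrays left out include food removed replicates 3, 4 and 5, the 3 lowest in Hk2 of that label. They also include ad lib replicate 6, the lowest in Hk2 of the ad lib arrays. With all 12 arrays no overlap was found for 0 of the 7 members and 2.5% of all tested probes. With chip position as a covariate Hk2 differed by 1.11, which missed the threshold (adjusted p = 0.306, limma). Position nearly coincides with the label, so that fit cannot separate them, and only 32 of 12196 probes passed in it. By the methods' t-test the adjusted p was 0.0684. The call was also lost without food removed replicate 1, 2 or 6 (adjusted p = 0.0537, 0.0558 and 0.0545 from limma, differences 1.22, 1.16 and 1.17).

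None of the 3 phosphofructokinase subunits passed the test, and they did not share a direction. Pfkl, the liver-type subunit, had the largest difference among them. Its log2 signal was 10.22, 10.67, 9.69, 10.04, 10.46 and 10.56 in food removed replicates 1 to 6, against 10.01, 10.03, 8.92, 9.05, 9.68 and 10.001 in ad lib replicates 1 to 6. Of the arrays labelled food removed, 5 lay above every ad lib array and replicate 3 did not. The log2 difference was 0.66 (standard error 0.23, 95% interval 0.17 to 1.15, adjusted p = 0.161 from limma). The exact permutation test, two-sided, gave p = 0.0238. Pfkm, the muscle-type subunit, had a signal of 7.93 to 8.91 (median 8.76) in the arrays labelled food removed and of 8.27 to 9.33 (median 8.69) in those labelled ad lib. Its difference was -0.14 (95% interval -0.57 to 0.28, adjusted p = 0.790 from limma), and its sign turned with array weights (0.077) and with chip position as a covariate (0.067). Without 1 array it ran from -0.24 (without ad lib replicate 2) to -0.0053 (without food removed replicate 3).

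Pfkp, the platelet-type subunit, was set apart by 3 arrays rather than by the groups. Its log2 signal was 9.27, 9.37, 12.34, 9.41, 10.69 and 9.40 in food removed replicates 1 to 6, against 9.72, 9.53, 9.77, 9.47, 9.48 and 10.97 in ad lib replicates 1 to 6. Food removed replicates 3 and 5 and ad lib replicate 6 were high, and the other 9 arrays lay within 9.27 to 9.77. Between the groups Pfkp differed by 0.26 (standard error 0.48, 95% interval -0.77 to 1.28, adjusted p = 0.857 from limma). On the same 3 arrays the epididymis gene Lcn5 had log2 signals of 14.49, 11.17 and 11.15, and Defb1, a defensin of epithelia, had 10.85, 8.95 and 8.33. The epithelial keratin gene Krt19 had 11.99, 12.32 and 12.24 there, against 9.47 to 10.96 on the other 9 arrays. Krt19 was on the mesothelium marker list, and the other genes of that list with a probe were not raised there. Upk1b had 6.06, 6.65 and 6.60 (7.17 to 8.80 on the other 9 arrays). Msln had 10.16, 11.43 and 11.33 (11.36 to 12.72 on the other 9 arrays). Acta1, of the skeletal muscle list, had 10.34, 8.42 and 8.70 on these 3 arrays, against 4.59 to 5.73 on the other 9. Of that list Myh4, Ckm, Tnnt3 and Myl1 did not set these 3 arrays apart. Of the smooth muscle list Cnn1 (6.64, 5.84 and 6.17) and Des (11.04, 10.75 and 10.70) were highest on these 3 arrays, and Tagln did not set them apart. Food removed replicate 4 carried Lcn5 at 8.96 and Gpx5 at 8.27 while its Pfkp signal was 9.41. The summed signal of the 13 epididymis genes was 17.03 and 11.62 on food removed replicates 3 and 5 and 11.52 on ad lib replicate 6. On food removed replicate 5 and ad lib replicate 6 that sum came mostly from Lcn5. There Gpx5 had only 4.75 and 4.85, and Adam7 only 4.84 and 4.80. The part of these markers in the Pfkp signal was not tested. Without those 4 arrays Pfkp was 9.27 to 9.40 in the 3 remaining arrays labelled food removed and 9.47 to 9.77 in the 5 labelled ad lib. The sign was then opposite, at -0.25 ± 0.13 (standard error), with an adjusted p of 0.357 in limma. It was -0.20 without food removed replicate 3 alone and -0.063 with array weights.

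**Figure D2:**
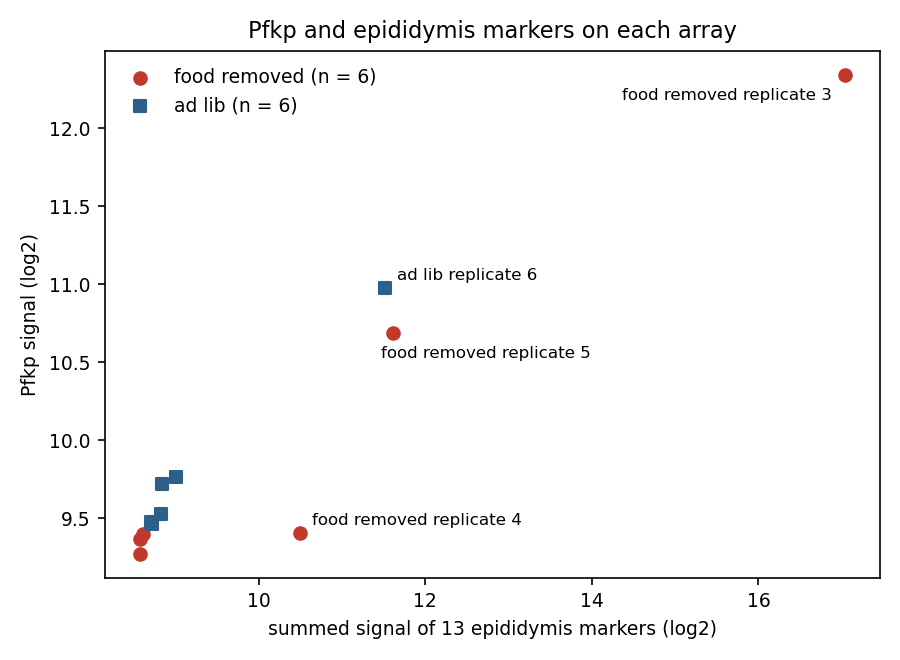
Pfkp log2 signal (vertical axis) against the log2 of the summed signal of 13 epididymis genes (horizontal axis) on each array, with circles for food removed and squares for ad lib. The 3 arrays with Pfkp above 10 are those with a summed epididymis signal above 11.

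Among the bifunctional enzymes Pfkfb3 fell in the arrays labelled food removed, while Pfkfb1 and Pfkfb4 did not pass. The Pfkfb3 signal was 7.77, 8.02, 5.94, 7.63, 5.90 and 6.97 in food removed replicates 1 to 6, against 9.13, 9.22, 7.53, 10.16, 9.88 and 8.82 in ad lib replicates 1 to 6. All 6 arrays labelled food removed lay below the ad lib mean, and 5 of the 6 ad lib arrays lay above every array labelled food removed. Ad lib replicate 3 was the array that overlapped. In raw units the signal was 126 to 401 in the arrays labelled food removed and 214 to 1196 in those labelled ad lib. The standard error over the beads of 1 array was 3.18 to 5.53% of the Pfkfb3 signal, which is less than the spread between rats. The log2 difference was -2.08 (standard error 0.46, 95% interval -3.08 to -1.09, adjusted p = 0.0286 from limma), a fold of 4.24 for ad lib over food removed. The exact permutation test, two-sided, gave p = 0.00866.

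The size of the Pfkfb3 difference moved between -2.41 and -1.59 over 24 alternatives with the same sign in each, and 11 of them took its adjusted p above 0.05. With no background correction it was -1.59 (adjusted p = 0.0241 from limma). Without food removed replicate 5 or 6 or ad lib replicate 1, 2, 4 or 5 the adjusted p was 0.0663, 0.0643, 0.0553, 0.0522, 0.0617 and 0.0793 from limma (differences -1.86, -2.07, -2.07, -2.06, -1.89 and -1.93). Without the 4 arrays with epididymis markers it was -1.61 (adjusted p = 0.124), and food removed replicates 3 and 5, the lowest in Pfkfb3, are among them. With chip position as a covariate Pfkfb3 differed by -2.26 and did not pass (adjusted p = 0.223, limma), in a fit that cannot separate position from label. Of 4 listed endothelial genes with a probe 1 passed, Cldn5, which was lower in the arrays labelled food removed. The summed signal of the 4 genes came mostly from Cldn5. It was 11.42 to 12.76 in the arrays labelled food removed and 12.53 to 13.20 in those labelled ad lib. Pfkfb3 is also expressed in endothelium, and the part of this shift in its signal was not tested.

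**Figure D3:**
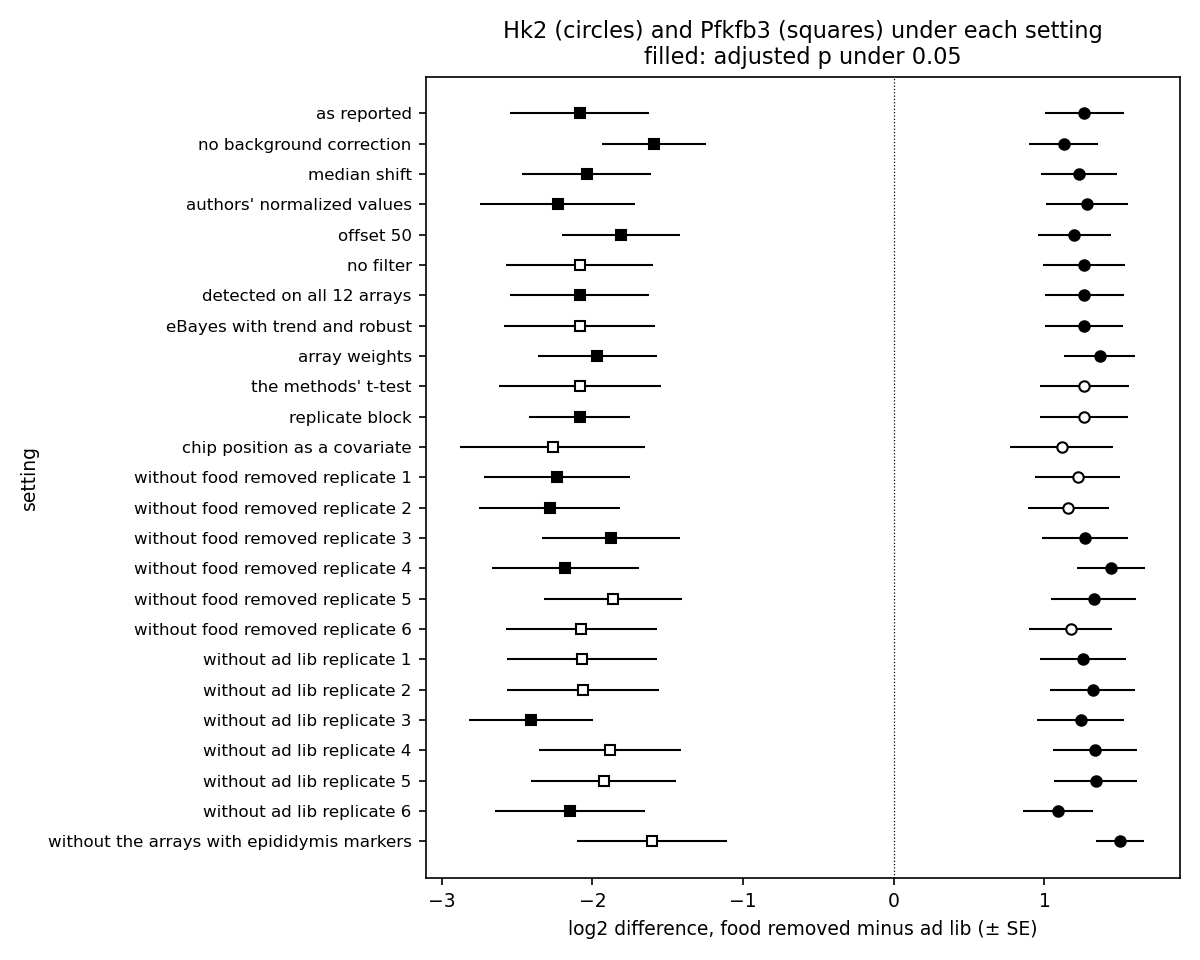
Log2 difference, food removed minus ad lib, with its standard error (horizontal axis) for Hk2 (circles) and Pfkfb3 (squares) under each setting (vertical axis), filled where the adjusted p is under 0.05. Hk2 stays between 1.09 and 1.50 and Pfkfb3 between -2.41 and -1.59, while several symbols are open.

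Pfkfb1, the form known from liver and muscle, had the brightest probe of the set. Its log2 signal was 10.93 to 11.95 (median 11.83) in the arrays labelled food removed and 11.41 to 12.15 (median 11.78) in those labelled ad lib. The lowest value was that of food removed replicate 3. The difference was -0.12 (standard error 0.19, 95% interval -0.53 to 0.28, adjusted p = 0.812 from limma), and its sign turned without food removed replicate 3 (0.022), without the 4 arrays with epididymis markers (0.0026) and with array weights (0.055). Pfkfb4, known from testis and from hypoxic cells, was dim, at 6.01, 5.66, 6.07, 5.61, 6.14 and 5.56 in food removed replicates 1 to 6, against 5.65, 5.40, 5.89, 5.59, 5.29 and 5.37 in ad lib replicates 1 to 6. All 6 arrays labelled food removed lay above the ad lib mean, but the groups overlapped. Its difference was 0.31 (standard error 0.14, 95% interval 0.00 to 0.61, adjusted p = 0.311 from limma, exact permutation p = 0.0584). Pfkfb2, the form known from heart, was detected on 5 of the 12 arrays, 3 labelled food removed and 2 labelled ad lib. Its signal was 4.78 to 5.68 in the arrays labelled food removed and 4.75 to 5.35 in those labelled ad lib. With no filter it differed by 0.13 ± 0.15 (standard error, adjusted p = 0.856 in limma), which is not detectable at this brightness.

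The responses of 2 isoforms of a family were compared through their difference on each array, for the 6 pairs with both probes tested. Pfkfb3 differed from both other tested Pfkfb forms. Pfkfb1 exceeded Pfkfb3 by 4.63 ± 0.70 on the log2 scale in the arrays labelled food removed and by 2.67 ± 0.97 in those labelled ad lib (SD, n = 6 each), a shift of 1.96 (95% interval 0.88 to 3.05, exact permutation p = 0.00866, adjusted over 6 pairs 0.0260). Pfkfb3 exceeded Pfkfb4 by 1.20 ± 1.12 in the arrays labelled food removed and by 3.59 ± 1.08 in those labelled ad lib, a shift of -2.39 (95% interval -3.80 to -0.98, exact permutation p = 0.00866, adjusted 0.0260). In both pairs the groups overlapped. Without the 4 arrays with epididymis markers the shifts were 1.61 and -1.78 and neither passed (exact permutation, adjusted p = 0.214), in a design of 3 against 5 arrays where 2 pairs at the smallest possible p have an adjusted p of 0.0536 and so cannot pass. Pfkl shifted against Pfkm by 0.80 (95% interval 0.04 to 1.56, exact permutation p = 0.0260, adjusted 0.0519). With the authors' values this shift was 0.82 and passed (exact permutation, adjusted p = 0.0476), so the pair lies at the threshold. For the remaining 3 pairs no difference in response was shown. The shift was 0.40 for Pfkl against Pfkp (95% interval -1.07 to 1.88), -0.40 for Pfkm against Pfkp (-1.87 to 1.07) and -0.43 for Pfkfb1 against Pfkfb4 (-1.03 to 0.17). That of Pfkl against Pfkp was 0.18 without food removed replicate 2, 0.98 without food removed replicate 3 and 1.21 without the 4 arrays with epididymis markers, and did not pass in any of these. Such intervals leave room for shifts of 1 log2 unit.

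By the mean over all 12 arrays the probes ranked Pfkfb1 (11.73), Pfkp (9.95), Pfkl (9.94), Hk2 (9.34), Pfkm (8.68), Pfkfb3 (8.08) and Pfkfb4 (5.69) on the log2 scale. Pfkfb1 was brighter than 91.0% of the tested probes, Hk2 than 67.3% and Pfkfb4 than 15.5%. Probes differ in how well they bind, so this is an order of probe signals and not of transcript amounts. Pfkp and Pfkl could not be ordered, since Pfkp was the brighter on 5 of 12 arrays (mean difference 0.01 ± 1.11, SD). Pfkl was above Hk2 on 10 of 12 arrays (0.60 ± 0.70). Hk2 was above Pfkm on 6 of 6 arrays labelled food removed and on 4 of 6 labelled ad lib. Pfkm was above Pfkfb3 on 6 of 6 arrays labelled food removed and on 2 of 6 labelled ad lib. The places of Hk2 and Pfkfb3 in the order thus depended on the label. Hk2 averaged 9.98 in the arrays labelled food removed and 8.71 in those labelled ad lib, and Pfkfb3 averaged 7.04 in the arrays labelled food removed and 9.12 in those labelled ad lib, so their means over all 12 arrays stand for neither group.

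Of 59 listed genes around the family (other glucose-phosphorylating genes, lower glycolysis, lactate, glycogen, the pentose phosphate pathway and regulators), 46 had a probe and 42 were tested. At an adjusted p under 0.05 limma called 0 higher and 0 lower, and the methods' t-test called 0. At an unadjusted p under 0.05 there were 10 of 42, against 15.9% of all tested probes. The median difference of the 42 genes was 0.02 and that of all tested probes -0.02. Among 11 tested genes of lower glycolysis the differences ran from -0.57 to 0.62 with a median of -0.06. Eno3, the muscle enolase, and the triosephosphate isomerase gene Tpi1 had the smallest p there, with differences of -0.57 (adjusted p = 0.211 from limma) and -0.18 (0.413). Beside phosphofructokinase, the isomerase gene Gpi had -0.17 (adjusted p = 0.424), and Fbp1, the opposing fructose bisphosphatase, had 0.64 with a wide 95% interval of -1.10 to 2.38.
Vdac1, the mitochondrial channel to which hexokinases bind, had 11.90 ± 0.21 in the arrays labelled food removed and 12.29 ± 0.08 in those labelled ad lib (SD, n = 6 each), a difference of -0.39 (adjusted p = 0.0833 from limma). The glucose-6-phosphatase gene G6pc1, whose product reverses the hexokinase step, had 0.23 (adjusted p = 0.487). The monocarboxylate carriers Slc16a1 and Slc16a3, which move lactate, had 0.44 (adjusted p = 0.108) and 0.82 (0.282). Of the glycogen genes, Pgm2 had -0.24 (adjusted p = 0.299) and the phosphorylase gene Pygb 0.30 (0.331). Rpia and Pgls of the pentose phosphate pathway had 0.41 (adjusted p = 0.147) and 0.14 (0.667). Of the regulators, Myc, a transcription factor that raises glycolytic genes, had -0.87 (standard error 0.25, adjusted p = 0.0882) and Mlx, a partner of carbohydrate response factors, 0.30 (0.149).

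**Figure D4:**
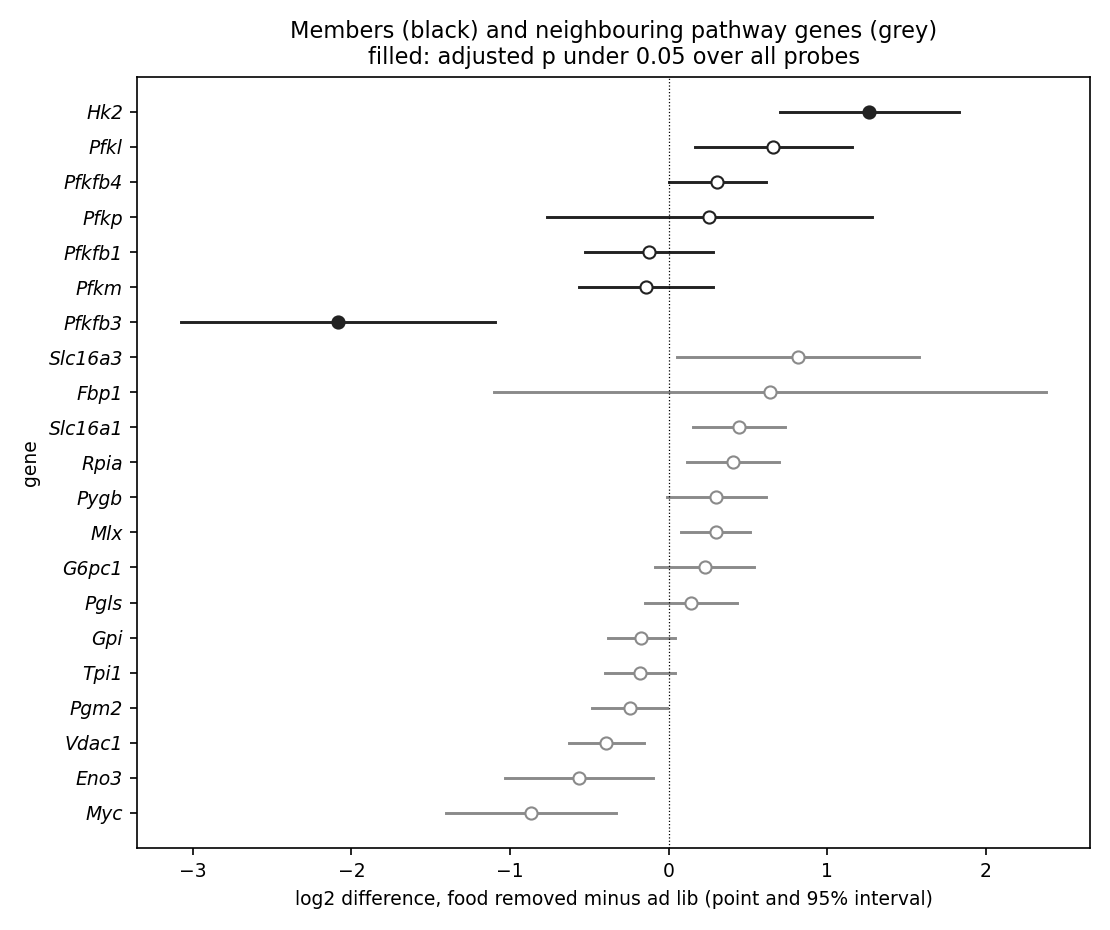
Log2 difference, food removed minus ad lib, with its 95% interval (horizontal axis) for the 7 tested members (black) and the 14 named pathway genes (grey), filled where the adjusted p over all probes is under 0.05. Hk2 at 1.26 and Pfkfb3 at -2.08 are filled, and every pathway gene shown is open.

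The genes whose signal followed Pfkfb3 most closely from rat to rat were Tollip, Coro1c, Mcmbp, Ube2a and Cox15. Each group's mean was first taken off, and the deviations were correlated over the 12 arrays for 8779 other probes with a symbol. Pearson's r was 0.95, 0.93, 0.90, 0.90 and 0.90 for these genes, and Spearman's rho 0.95, 0.87, 0.82, 0.87 and 0.90. They are the highest of many, so no p is given. Without the 2 arrays farthest from the median in Pfkfb3, r was 0.82 to 0.90. None of the 5 differed between the groups as Pfkfb3 did, with differences of -0.12 to 0.11 (adjusted p of at least 0.742 from limma). Their spread was small beside that of Pfkfb3, with SDs of 0.11 to 0.41 in the arrays labelled food removed and 0.18 to 0.39 in those labelled ad lib.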

How the data were processed

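RNA of epididymal fat from 12 rats was hybridized to RatRef-12 BeadChips, and samples were grouped by their labels. The authors deposited per probe the raw signal intensity, the p-value of its detection above negative controls, and the standard error and number of beads. They also deposited normalized intensities on a linear scale (cubic spline per the paper, GenomeStudio per the labels). Any further centring of that table is not given in the sources used here, and 21.2% of its values lie below 0. Its median was 23.3 on every array.

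The raw signals went through neqc (limma 3.58.1, R 4.3.3, offset 16, log2 scale). Offset and background correction set the fold size of dim probes. A probe was tested where its detection p was below 0.05 on 6 or more arrays. The two-sided test was eBayes after lmFit, and p-values were adjusted by Benjamini-Hochberg over all 12196 probes. Single values and isoform pairs were compared by exact permutation over the arrays. The intervals of the pair shifts use the pooled SD. Symbols come from the platform annotation, which gives 13793 of 22523 probes 1 symbol, 0 several and 8730 none. A pathway gene is represented by its brightest tested probe. The fit was tested on simulated data.

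Named were all members, the 2 pathway genes of each list with the smallest p and any that passed, and the 5 genes most like Pfkfb3. Members and lists were chosen with earlier results of these data known. Marker lists covered adipocyte, epididymis, macrophage, endothelium, smooth and skeletal muscle, erythroid and mesothelium genes. In these, 1 adipocyte gene (Lep) passed as higher, 1 endothelial gene (Cldn5) as lower and 0 of the others. Lep was 7.98 to 9.41 in the arrays labelled food removed and 6.13 to 8.31 in those labelled ad lib. Tried instead were raw signals without background correction, scaling by a median shift, the authors' values, an offset of 50, other detection filters, trend and robust options of eBayes, weighted arrays, the t-test that the methods name, a replicate block, a chip position covariate and the loss of each array in turn. Leaving out the 4 arrays with an epididymis gene above a log2 signal of 8 was added after the data were seen. Array files give no molecule counts, so the number of arrays limits the precision.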

Additional observations from a re-analysis of the deposited data

Results flagged for a closer look

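In 6 of 54 groups of 6 arrays, from 27 named genes, 1 array stood apart from the other 5 by Dixon's criterion, and chance alone gives about 5% of groups. For the members these were Pfkp on ad lib replicate 6 (10.97 on the log2 scale, the others 9.47 to 9.77) and Pfkfb1 on food removed replicate 3 (10.93, the others 11.60 to 11.95). For the pathway genes they were Vdac1 (11.51) and Slc16a3 (9.20) on food removed replicate 3, Fbp1 on ad lib replicate 6 (8.66, the others 4.84 to 5.41) and Myc on food removed replicate 4 (10.20). All of these arrays carry epididymis markers, and the part of the markers in these values was not tested.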

How the results depend on the processing

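The count of 301 passing probes was 103 with a median shift, 840 with array weights, 178 with the replicate block, 32 with chip position as a covariate and 157 to 488 without 1 array. With no filter it was 255 of 22523 probes, with eBayes trend and robust 349 of 12196, and without the epididymis arrays 339 of 11247. Chip position nearly coincides with the label, so the fit with that covariate cannot separate position from label. Of the member probes 2 passed, against 1 with no filter, 1 with eBayes trend and robust, 1 without the arrays with epididymis markers, 0 with the methods' t-test, 0 with chip position and 0 to 2 without 1 array. Pfkfb3 did not pass with no filter (-2.08, adjusted p = 0.0706 from limma), with trend and robust (-2.08, 0.0503), with the methods' t-test (-2.08, 0.0920), with chip position (-2.26, 0.223) or without the epididymis arrays (-1.61, 0.124), and its difference was -2.41 to -1.86 without 1 array. The pathway genes that passed, of 42 tested, were counted after their values were seen. They were 1 with no background correction and 1 with trend and robust (Vdac1 in each), where 349 of 12196 probes passed in each. With array weights 4 passed (Slc16a1, Rpia, Myc and Akt1), where 840 of 12196 probes passed. Without the epididymis arrays 2 passed (Slc16a1 and Myc), where 339 of 11247 probes passed. Without 1 array 0 to 3 passed. With no background correction, the authors' values or an offset of 50, Pfkl against Pfkm passed (exact permutation, adjusted p = 0.0433, 0.0476 and 0.0476). The count of isoform pairs, 2, was 3 in each of these settings and 2 to 3 without 1 array. It was 0 with the replicate block and 0 without the epididymis arrays, which says nothing of stability, since 4 and 3 of the 6 pairs would have to reach the smallest possible p to pass. Signs turned for Pfkp with array weights (-0.063), without the epididymis arrays (-0.25) and without food removed replicate 3 (-0.20), for Pfkfb1 under the same 3 (0.055, 0.0026 and 0.022), for Pfkm with array weights (0.077) and chip position (0.067), and for the pair Pfkm minus Pfkp without the epididymis arrays (0.25) or food removed replicate 3 (0.19). Without 1 array Pfkp ran from -0.20 to 0.49, Pfkfb1 from -0.20 to 0.022 that pair from -0.60 to 0.19 and Pfkl minus Pfkp from 0.18 to 0.98. The cause was not tested in these cases. The sample titles number the replicates without saying that equal numbers pair the rats. Deviations of same-numbered arrays correlated at -0.41 to 0.13, which shows no such pairing but cannot exclude it. With the replicate block Hk2 did not pass (adjusted p = 0.0915 from limma), Pfkfb3 did (0.0260) and Pfkl did (0.0473, and 0.0370 with array weights). Pfkfb2 and Pfkfb4 lie near background, which limits their differences.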
